A study of Arabidopsis thaliana with 9 samples.

Results

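Pectin methylesterases and their inhibitors were described in imbibed Arabidopsis thaliana seeds kept in the dark. The family was taken as every gene of the count matrix whose symbol was PME or PMEI followed by a number, and it held 65 of the 32830 genes in the matrix. This rule used symbols and no measured value, but it was set with earlier results of these data known. Of the 65 genes, 55 carried a PME symbol and 10 a PMEI symbol, and they lay on all 5 chromosomes with 11, 13, 17, 10 and 14 members on chromosomes 1 to 5. By pectinesterase signatures in their proteins 53 were classed as esterases, and 11 were classed as inhibitors by symbol or annotated product. The 11 inhibitors were the 10 PMEI genes and AT4G12390, which is listed as PME1 but annotated as a pectin methylesterase inhibitor. A second gene listed as PME1, AT1G53840, is an esterase, so both are given with their identifiers. The remaining gene, PME57, held none of the 5 signatures and no inhibitor name, so it was not classed, and it had no counts.

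RNA was measured in whole seeds of 3 groups with 3 biological replicates each. Ara-1 control seeds were wild type of the accession Ara-1 and received no KAR2. AtKAI2OE +KAR2 seeds carried an AtKAI2 overexpression transgene and were placed on medium with 0.5 µM KAR2, a karrikin, which is a germination stimulant found in smoke. AtKAI2OE control seeds were of the same line without KAR2. The labels place the line in Col-0, the default wild type of the study. The study describes the line as 35S::AtKAI2 in the kai2 mutant htl-3, so the transgene is driven by a promoter active in most tissues. AtKAI2 is the receptor for karrikins. All seeds were spread under dim light, imbibed for 4 days in the dark at 4 °C and then kept for 24 h in the dark at room temperature. In the dark conditions of the study, KAR2 alone or AtKAI2 overexpression alone was not enough for germination. Accession, transgene and the kai2 mutation differ together between Ara-1 control and AtKAI2OE control seeds and cannot be told apart. KAR2 differs as well between Ara-1 control and AtKAI2OE +KAR2 seeds. Each pair of the 3 comparisons shares a group of libraries, so they are not independent of each other.

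Pectin is the gel-like polysaccharide of plant cell walls. Its main chain, homogalacturonan, leaves the Golgi methylesterified, and pectin methylesterases in the wall remove the methyl groups. Demethylesterified stretches can bind calcium and stiffen the wall, or become substrate for polygalacturonases and pectate lyases that loosen it. Inhibitor proteins bind the esterases and block them, and many plant esterases are made with an inhibitor-like domain of their own ahead of the catalytic domain. In seeds these proteins act in the mucilage of the coat, in the endosperm cap that the radicle must break, and in the walls of the growing embryo.

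The 9 libraries held 17479888 to 33306518 counts in named genes. Assembled entries with no gene name took a further 13.4 to 35.1% of all counts. The highest share, 35.1%, was in Ara-1 control replicate 1, which was also the shallowest library. KAI2 had 7.84 to 9.76 CPM (counts scaled to the size of each library) in Ara-1 control seeds, 568 to 604 CPM in AtKAI2OE +KAR2 seeds and 129 to 217 CPM in AtKAI2OE control seeds, so it was higher in both groups of the overexpression line than in Ara-1 control and differed between them. The summed level of 9 genes for seed storage proteins and oil bodies was 359 to 574 CPM in Ara-1 control seeds, 14777 to 15990 CPM in AtKAI2OE +KAR2 seeds and 124483 to 164097 CPM in AtKAI2OE control seeds, and 9 of 9 were lower in each comparison with AtKAI2OE control. The 3 genes of greening seedlings summed to 1311 to 1528 CPM, 1199 to 1286 CPM and 121 to 209 CPM in the same order of groups, and 3 of 3 were higher in each comparison with AtKAI2OE control. The 5 endosperm genes summed to 712 to 954 CPM in Ara-1 control seeds, 1663 to 1923 CPM in AtKAI2OE +KAR2 seeds and 1354 to 3531 CPM in AtKAI2OE control seeds, and did not move together. In each comparison with AtKAI2OE control, EXPA2 and MAN6 were higher, EPR1 was lower, and MAN5 and MAN7 were not called. EXPA2 had 511 to 798 CPM in Ara-1 control, 886 to 972 CPM in AtKAI2OE +KAR2 and 22.1 to 64.3 CPM in AtKAI2OE control seeds, and EPR1 had 129 to 215 CPM, 761 to 921 CPM and 1311 to 3497 CPM in the same order of groups. Of the 4 seed coat genes, PRX36 and BAN had no counts in any library, TT12 had 0.0968 CPM in a single AtKAI2OE +KAR2 library, and MUM4 had 18.4 to 28.8 CPM in Ara-1 control, 12.5 to 15.5 CPM in AtKAI2OE +KAR2 and 2.38 to 4.98 CPM in AtKAI2OE control seeds. The storage, oil body and greening markers, EXPA2 and EPR1 thus differed between the same groups as the family, and their part in the results below was not tested. In RNA from whole seeds, fewer cells of a type and less RNA per cell cannot be told apart.

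Of the 65 members, 39 had at least 1 count in some library and 26 had none. No count over 9 libraries, for which an upper limit of 3 counts was used, allows a level of up to 0.0127 CPM, counting error only. Esterase transcripts together stood at 778 ± 70.5 CPM in Ara-1 control seeds, 639 ± 8.11 CPM in AtKAI2OE +KAR2 seeds and 107 ± 14.1 CPM in AtKAI2OE control seeds (SD, n = 3 each). Inhibitor transcripts together stood at 127 ± 4.79 CPM, 127 ± 6.94 CPM and 11.3 ± 0.454 CPM in Ara-1 control, AtKAI2OE +KAR2 and AtKAI2OE control seeds. The summed levels of AtKAI2OE control seeds lay below those of both other groups in every library. The sum of esterases divided by the sum of inhibitors was 6.12 ± 0.523 in Ara-1 control seeds, 5.06 ± 0.224 in AtKAI2OE +KAR2 seeds and 9.51 ± 0.997 in AtKAI2OE control seeds. The order of this ratio depends on which loci are counted. With the other loci annotated as pectinesterases or as members of the inhibitor superfamily added, which was tried after the data were seen, it was 2.46 ± 0.0913, 2.40 ± 0.0875 and 2.02 ± 0.171 in Ara-1 control, AtKAI2OE +KAR2 and AtKAI2OE control seeds. These sums were described without a test.

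A few members made up most of each sum. PME3, an abundant esterase of many plant tissues, accounted for 65.8 to 68.2% of esterase counts in Ara-1 control seeds and 71.2 to 73.8% in AtKAI2OE +KAR2 seeds, but 7.94 to 16.9% in AtKAI2OE control seeds. PME31, an esterase reported to act in salt tolerance, accounted for 2.28 to 2.44%, 5.01 to 5.21% and 54.3 to 74.8% of esterase counts in the same order of groups. The leading esterase transcript was thus PME31 in AtKAI2OE control seeds and PME3 in both other groups. With PME3 and PME31 left out, the other esterases still summed to 239 ± 18.9 CPM in Ara-1 control seeds, 146 ± 10.6 CPM in AtKAI2OE +KAR2 seeds and 27.5 ± 9.05 CPM in AtKAI2OE control seeds. PMEI7, an inhibitor known to bind and block PME3, made up 59.7 to 64.1% of inhibitor counts in Ara-1 control seeds, 89.5 to 91.7% in AtKAI2OE +KAR2 seeds and 43.7 to 50.4% in AtKAI2OE control seeds. Without PMEI7 the inhibitors summed to 48.3 ± 2.22 CPM in Ara-1 control seeds, 12.2 ± 1.11 CPM in AtKAI2OE +KAR2 seeds and 6.02 ± 0.611 CPM in AtKAI2OE control seeds.

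**Figure D1:**
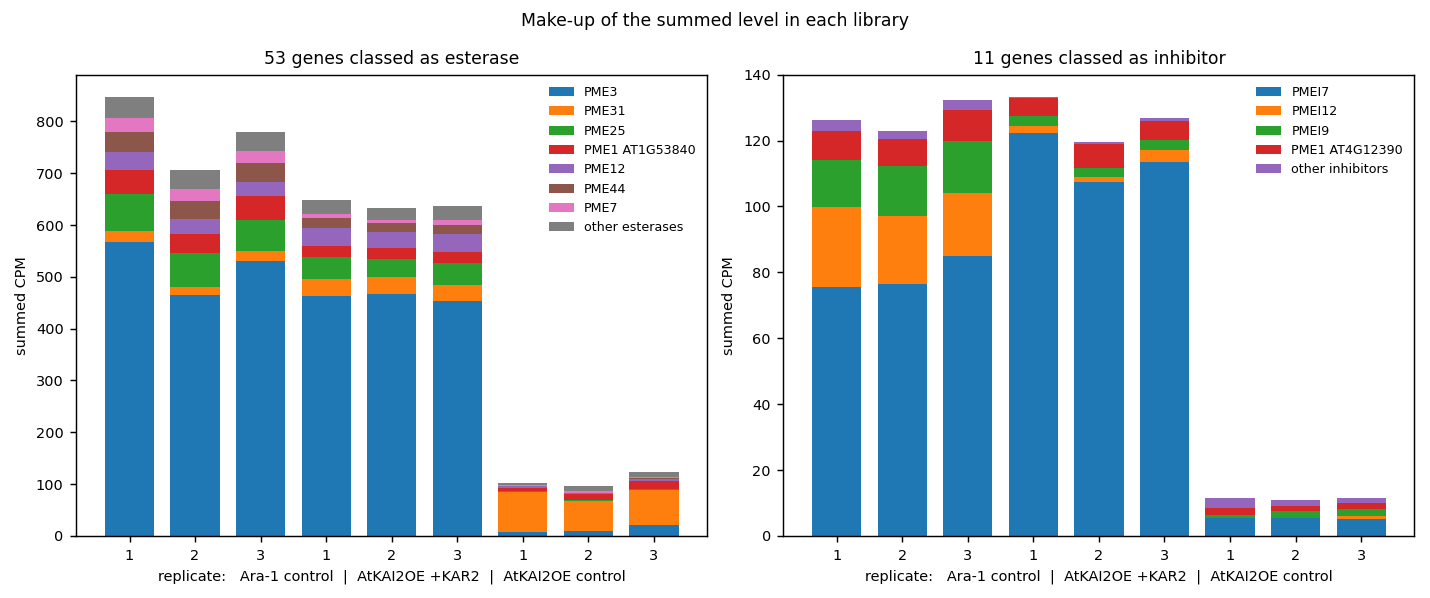
Summed CPM of the esterases (left) and of the inhibitors (right) in each of the 9 libraries, stacked by the members that contribute most, with the groups in the order Ara-1 control, AtKAI2OE +KAR2 and AtKAI2OE control. PME3 makes up most of the esterase bars in Ara-1 control and AtKAI2OE +KAR2 seeds, and PME31 in AtKAI2OE control seeds.

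Levels were compared between genes as TPM, which divides counts by transcript length as well as by library size. In Ara-1 control seeds PME3 stood highest at 274 ± 34.6 TPM, followed by PMEI7 at 64.0 ± 14.1 TPM and PMEI12 at 39.0 ± 4.11 TPM (SD, n = 3). PME25, PME1 AT1G53840 and PMEI9 came next at 26.4, 23.5 and 19.2 TPM, with ranges over replicates that overlapped from each to the next. In AtKAI2OE +KAR2 seeds PME3 stood at 264 ± 10.5 TPM, PMEI7 at 89.0 to 111 TPM and PME31 at 34.7 ± 2.36 TPM, and these did not overlap. PME12 and PME25 followed at 21.1 and 17.5 TPM. In AtKAI2OE control seeds PME31 stood at 47.9 ± 4.03 TPM, and the next, PME3, at 4.88 ± 2.55 TPM. PME3, PME1 AT1G53840 and PMEI7 could not be ordered there because their ranges overlapped.

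The first comparison asked which family members differed when the overexpression line was given KAR2. Of 25 members that passed the filter on low counts in AtKAI2OE +KAR2 against AtKAI2OE control seeds, 15 were higher and 4 were lower at an adjusted p of 0.05 (edgeR quasi-likelihood test, Benjamini-Hochberg over all genes tested), and 6 were not called. Over all 17226 genes tested, 29.8% were higher and 24.0% were lower. With scaling by library size alone, 41.2% of all genes were higher and 13.2% lower, and 17 members were higher and 4 lower. The libraries of the groups did not overlap for 24 of the 25 members and for 65.2% of all genes tested. The median log2 fold change of the 25 members was 2.34, against 0.06 over all genes tested. Among 20 esterases tested, 12 were higher and 3 lower, with a median of 2.56. Among 5 inhibitors tested, 3 were higher and 1 lower, with a median of 1.69. Members that pass such a filter because of the group in which they are high were bound to differ, and these counts are given as a description.

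PME3 (AT3G14310, chr3:4771833-4775258, minus strand) had the largest difference in level. It had 462, 468 and 453 CPM in AtKAI2OE +KAR2 seeds, against 8.14, 9.15 and 20.9 CPM in AtKAI2OE control seeds. The treated libraries lay close together and far above all 3 controls, and the log2 fold change was 5.17 ± 0.37 (SE, adjusted p = 6.64e-05). PME25 (AT3G10720) had 43.0, 34.5 and 41.5 CPM in AtKAI2OE +KAR2 seeds, against 0.992, 1.93 and 3.14 CPM in AtKAI2OE control seeds. Its log2 fold change was 4.25 ± 0.33 (SE, adjusted p = 8.62e-05). PME44 (AT4G33220) had 19.4, 17.3 and 18.4 CPM in AtKAI2OE +KAR2 seeds, against 0.794, 0.883 and 1.59 CPM in AtKAI2OE control seeds. The groups did not overlap, and the log2 fold change was 4.04 ± 0.25 (SE, adjusted p = 4.15e-05). The 114 bases at the end of PME44 are shared with PME45 on the opposite strand, but PME45 had no counts in any library.

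PME3, PME25 and PME44 were each higher with KAR2 and were picked after their values were seen. The 250 bases before their annotated starts are shown, 5′ to 3′ on the strand of each gene. They were read from the RefSeq copy of the genome (TAIR10.1), at chr3:4775259-4775508 (minus strand) for PME3, chr3:3357755-3358004 (minus strand) for PME25 and chr4:16022019-16022268 (plus strand) for PME44. Capitals mark matches, on either strand, to 3 motifs that occur in seed promoters: CACGTG (the G-box, bound by PIF and bZIP factors), CACATG (a related E-box) and TAACAAA (a gibberellin response element).
PME3: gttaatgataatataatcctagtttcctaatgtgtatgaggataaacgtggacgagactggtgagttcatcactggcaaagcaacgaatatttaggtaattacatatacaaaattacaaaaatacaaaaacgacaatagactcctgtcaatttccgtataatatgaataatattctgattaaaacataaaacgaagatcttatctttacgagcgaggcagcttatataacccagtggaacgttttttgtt
PME25: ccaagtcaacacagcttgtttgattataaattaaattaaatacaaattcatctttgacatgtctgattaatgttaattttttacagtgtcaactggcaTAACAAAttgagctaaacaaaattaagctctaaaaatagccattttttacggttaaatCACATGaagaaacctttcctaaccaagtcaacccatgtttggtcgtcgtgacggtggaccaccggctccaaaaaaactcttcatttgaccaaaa
PME44: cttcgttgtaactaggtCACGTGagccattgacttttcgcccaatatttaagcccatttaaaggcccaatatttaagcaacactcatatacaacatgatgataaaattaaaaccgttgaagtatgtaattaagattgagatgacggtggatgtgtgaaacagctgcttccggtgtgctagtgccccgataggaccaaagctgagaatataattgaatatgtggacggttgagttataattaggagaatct
The PME3 window held none of the 3 motifs. Nor did that of PME12, which is not printed, though PME12 was higher with KAR2 too and stood above PME44 there. The PME25 window held CACATG with its first base 94 bases before the start and TAACAAA 152 bases before it, and the PME44 window held CACGTG 233 bases before the start. Over windows of the same length before 27443 protein-coding genes, CACGTG was present in 6.49%, CACATG in 11.1% and TAACAAA in 16.1%. Among the 65 members they were present in 2, 8 and 13 windows. A match is a description of letters and not a binding site, and no match says only that these letters are missing from this window.

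Other esterases were higher in KAR2-treated seeds at lower levels. PME12 (AT2G26440) had 34.7, 31.3 and 33.6 CPM in AtKAI2OE +KAR2 seeds, against 3.31, 1.32 and 3.42 CPM in AtKAI2OE control seeds, with a log2 fold change of 3.63 ± 0.33 (SE, adjusted p = 0.000158). PME41, an esterase linked to chilling tolerance, had 8.65, 7.54 and 8.89 CPM in AtKAI2OE +KAR2 seeds, against 0, 0.442 and 1.41 CPM in AtKAI2OE control seeds. Its log2 fold change was 3.69 ± 0.73 (SE, adjusted p = 0.00474), and it moved between 3.17 and 4.93 over the alternatives tried, the highest value being that without AtKAI2OE control replicate 3. PME64 had 5.74, 4.38 and 4.63 CPM in AtKAI2OE +KAR2 seeds, against 0.595, 0.562 and 0.937 CPM in AtKAI2OE control seeds, a log2 fold change of 2.79 ± 0.29 (SE, adjusted p = 0.000262). PME7 had 7.16, 6.07 and 8.39 CPM in AtKAI2OE +KAR2 seeds, against 1.65, 2.81 and 2.48 CPM in AtKAI2OE control seeds, a log2 fold change of 1.60 ± 0.25 (SE, adjusted p = 0.00146). The groups of each of these 4 genes were apart, the lowest treated library lying above the highest control.

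The smallest of the called increases among the abundant esterases was that of PME1 AT1G53840. It had 21.2, 21.2 and 22.7 CPM in AtKAI2OE +KAR2 seeds, against 6.42, 12.6 and 15.1 CPM in AtKAI2OE control seeds. The log2 fold change was 0.92 ± 0.26 (SE, adjusted p = 0.0226), and the call was lost when any of the 3 treated libraries was left out (highest adjusted p = 0.0723). PME32 was not called, with 3.55, 2.49 and 3.52 CPM in AtKAI2OE +KAR2 seeds against 0, 1.20 and 1.31 CPM in AtKAI2OE control seeds, a log2 fold change of 1.86 (adjusted p = 0.0894). It was called higher with all 9 libraries in a single fit and without AtKAI2OE control replicate 1.

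A group of esterases was nearly silent in AtKAI2OE control seeds. PME33 had 1.84, 2.53 and 2.10 CPM in AtKAI2OE +KAR2 seeds, against 0, 0 and 0.187 CPM in AtKAI2OE control seeds, and a log2 fold change of 4.94 ± 0.87 (SE, adjusted p = 0.00278). PME59 had 1.58, 0.927 and 1.79 CPM in AtKAI2OE +KAR2 seeds, against 0, 0.161 and 0 CPM in AtKAI2OE control seeds, and a log2 fold change of 4.39 ± 0.90 (SE, adjusted p = 0.00545). The 4 control counts of each gene all came from a single library, replicate 3 for PME33 and replicate 2 for PME59, so both fold changes rest on that library and rose to 8.73 and 8.11 when it was left out, where the control group is at 0 and the fitted value is no bound. PME13, the neighbour of PME12, had 1.32, 1.81 and 1.39 CPM in AtKAI2OE +KAR2 seeds and no counts in AtKAI2OE control seeds, at least 30.3-fold higher against a limit of 3 counts over the control group (adjusted p = 0.000862). PME22, under 1 CPM in every treated library, was at least 9.95-fold higher by the same limit (adjusted p = 0.00363).

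The 3 esterases that were lower with KAR2 were PME31, PME2 and PME56. PME31 (AT3G29090, chr3:11073646-11075478, plus strand) had 33.8, 32.4 and 31.9 CPM in AtKAI2OE +KAR2 seeds, against 76.7, 57.8 and 67.0 CPM in AtKAI2OE control seeds. Every treated library lay below every control, with a log2 fold change of -1.07 ± 0.14 (SE, adjusted p = 0.000869). PME2 and PME56 were low throughout. PME2 averaged 0.0861 CPM in AtKAI2OE +KAR2 seeds and 1.85 CPM in AtKAI2OE control seeds (log2 fold change -4.28 ± 1.01, adjusted p = 0.00979), its treated counts all coming from replicate 1. PME56 averaged 0.0881 CPM in AtKAI2OE +KAR2 seeds and 1.67 CPM in AtKAI2OE control seeds (log2 fold change -4.12 ± 0.71, adjusted p = 0.00254).

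Inhibitors moved as well. PMEI7 (AT4G25260, chr4:12935710-12937236, minus strand) had 122, 107 and 114 CPM in AtKAI2OE +KAR2 seeds, against 5.29, 5.42 and 5.06 CPM in AtKAI2OE control seeds. Its log2 fold change of 4.42 ± 0.13 (SE, adjusted p = 2.06e-05) had the smallest standard error of the members given per library in this comparison. AT4G12390, the inhibitor listed as PME1, had 5.33, 7.12 and 5.95 CPM in AtKAI2OE +KAR2 seeds, against 2.12, 1.44 and 2.06 CPM in AtKAI2OE control seeds, a log2 fold change of 1.69 ± 0.24 (SE, adjusted p = 0.00109). PMEI12, of a group of inhibitors induced in leaves by the fungus Botrytis, had 2.19, 1.60 and 3.45 CPM in AtKAI2OE +KAR2 seeds, against 0.265, 0.0803 and 0.984 CPM in AtKAI2OE control seeds. Its log2 fold change of 2.44 ± 0.76 (SE, adjusted p = 0.0299) stood at 3.84 without AtKAI2OE control replicate 3 and at 1.85 without replicate 2, and the call was lost when any treated library was left out or without AtKAI2OE control replicate 1 (highest adjusted p = 0.111).

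PMEI9 was not called, with 3.03, 2.82 and 3.04 CPM in AtKAI2OE +KAR2 seeds against 0.926, 2.05 and 2.01 CPM in AtKAI2OE control seeds (log2 fold change 0.80, adjusted p = 0.0738). PMEI6, which acts on the mucilage esterases of the seed coat, was the inhibitor that was lower in treated seeds. It had 0.323 to 0.609 CPM in AtKAI2OE +KAR2 seeds and 1.26 to 2.84 CPM in AtKAI2OE control seeds, a log2 fold change of -1.95 ± 0.49 (SE, adjusted p = 0.0128), and the call was lost without AtKAI2OE +KAR2 replicate 1. PME16, PME23, PME36 and PME53 completed the 6 members that were tested and not called.

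**Figure D2:**
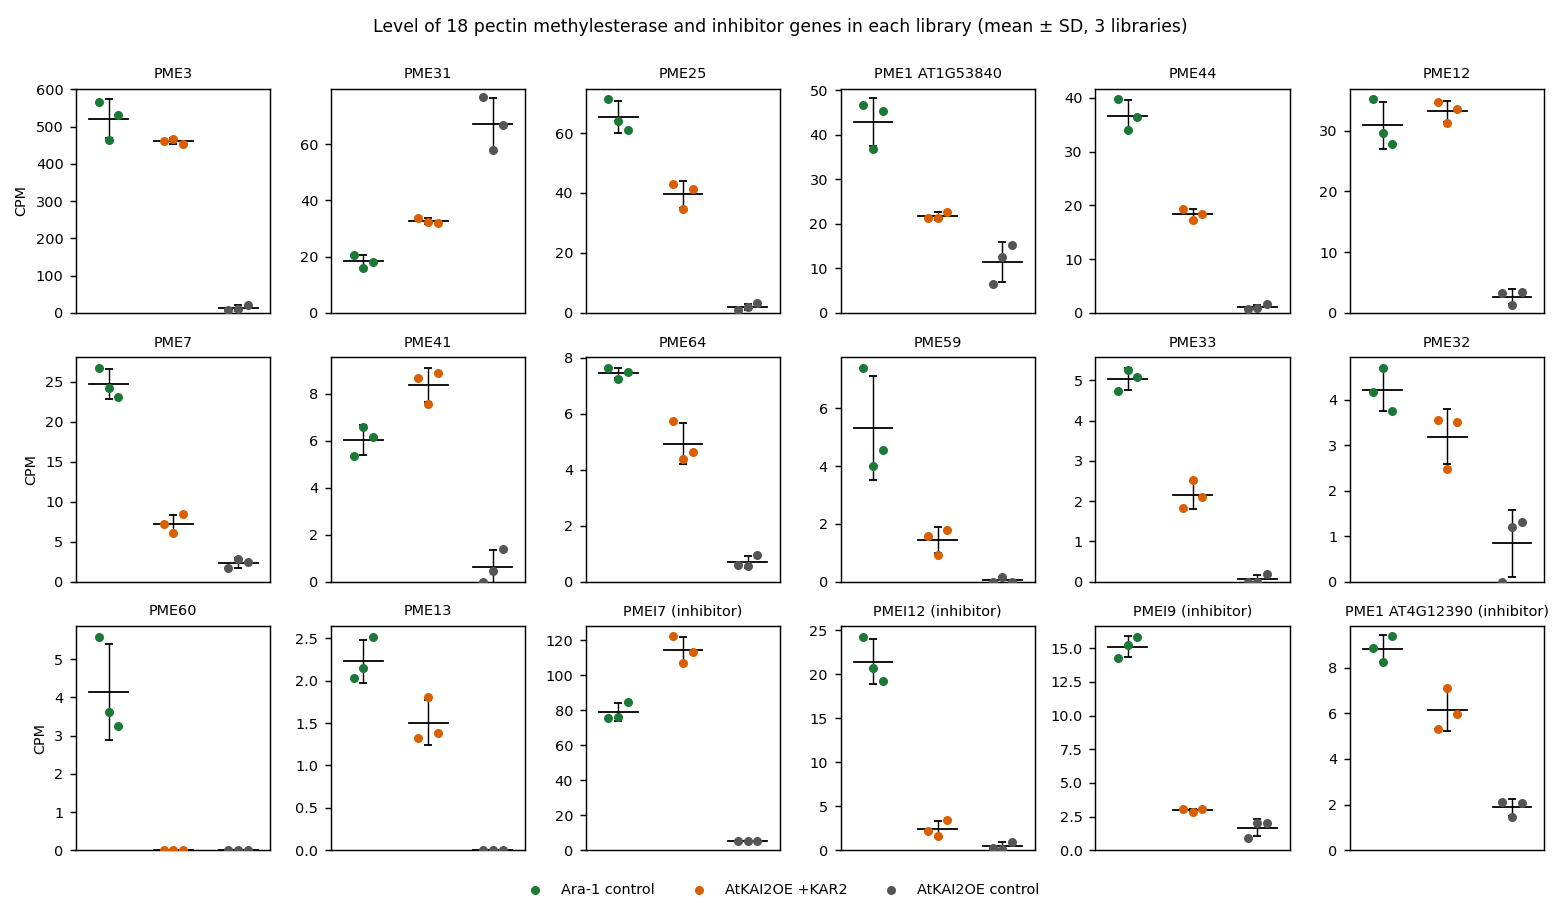
CPM of the 18 members described per library, each panel on its own linear axis from 0, with a point for each library, a bar at the mean and its SD (n = 3), and the groups from left to right as Ara-1 control, AtKAI2OE +KAR2 and AtKAI2OE control. PME31 is highest in AtKAI2OE control seeds, whereas PME3, PME25, PME44 and PMEI7 are lowest there.

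The second comparison set the 2 untreated groups against each other. Of 29 members tested in Ara-1 control against AtKAI2OE control seeds, 22 were higher, 5 lower and 2 not called, where 37.9% of all 17905 genes tested were higher and 31.8% were lower. The median log2 fold change of the 29 members was 3.51, or 3.38 with members at 0 in a group set to their bound, against 0.16 over all genes. The libraries did not overlap for 28 of the 29 members and for 75.2% of all genes tested. Of the 29 members, 9 had no counts in a group and passed the filter only through the other. They were bound to differ, and these counts too are given as a description. Among 22 esterases tested, 16 were higher and 4 lower. Among 7 inhibitors tested, 6 were higher and 1 lower.

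PME3 had 567, 465 and 531 CPM in Ara-1 control seeds and was higher than in AtKAI2OE control seeds (8.14, 9.15 and 20.9 CPM) by a log2 fold change of 5.34 ± 0.40 (SE, adjusted p = 2.41e-05). PME25 had 71.2, 63.9 and 60.9 CPM in Ara-1 control seeds, a log2 fold change of 4.97 ± 0.34 over AtKAI2OE control (SE, adjusted p = 1.77e-05). PME44 had 39.7, 33.9 and 36.5 CPM in Ara-1 control seeds, a log2 fold change of 5.04 ± 0.26 (SE, adjusted p = 5.9e-06). The 3 esterases whose upstream windows are printed above were thus higher than in AtKAI2OE control seeds in both comparisons with that group, which share its libraries. PME12 had 35.2, 29.6 and 27.8 CPM in Ara-1 control seeds, a log2 fold change of 3.51 ± 0.35 over AtKAI2OE control (SE, adjusted p = 9.33e-05). PME7 had 26.8, 24.2 and 23.1 CPM in Ara-1 control seeds, a log2 fold change of 3.37 ± 0.21 (SE, adjusted p = 1.24e-05). PME1 AT1G53840 had 46.6, 36.8 and 45.3 CPM in Ara-1 control seeds, a log2 fold change of 1.89 ± 0.28 (SE, adjusted p = 0.000728). None of these groups overlapped with AtKAI2OE control.

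Of the less abundant esterases, PME64 had 7.62, 7.25 and 7.50 CPM in Ara-1 control seeds, a log2 fold change of 3.38 ± 0.27 over AtKAI2OE control (SE, adjusted p = 3.63e-05). PME41 had 5.36, 6.60 and 6.14 CPM in Ara-1 control seeds, a log2 fold change of 3.24 ± 0.81 (SE, adjusted p = 0.00889) that stood at 4.49 without AtKAI2OE control replicate 3. PME33 had 4.74, 5.27 and 5.09 CPM and PME59 had 7.39, 4.02 and 4.56 CPM in Ara-1 control seeds. Their log2 fold changes of 6.16 ± 0.79 (adjusted p = 0.000322) and 6.26 ± 0.81 (adjusted p = 0.000338) rest on the same 4 control counts each, and rose to 10.02 and 10.05 without the library that held them. PME32, with 4.18, 4.70 and 3.76 CPM in Ara-1 control seeds against 0, 1.20 and 1.31 CPM in AtKAI2OE control seeds, was called with a log2 fold change of 2.26 ± 0.81 (SE, adjusted p = 0.0384), but the call held in only 1 of the 6 fits with a library left out, that without AtKAI2OE control replicate 1, where it was 1.67, and the adjusted p of the others was as high as 0.106.

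Some members had counts in Ara-1 control seeds and none in AtKAI2OE control seeds. PME60 had 5.59, 3.61 and 3.25 CPM in Ara-1 control seeds, at least 79.0-fold higher (adjusted p = 0.00017). PME13 had 2.03, 2.14 and 2.52 CPM in Ara-1 control seeds, at least 46.4-fold higher. PMEI10 was at least 36.2-fold higher, PME22 13.4-fold, PMEI4 12.5-fold, PME68 10.5-fold and PME47 9.79-fold, each at no more than 2.65 CPM in a library. Among the inhibitors with counts in both groups, PMEI7 had 75.5, 76.4 and 84.9 CPM in Ara-1 control seeds, a log2 fold change of 3.88 ± 0.15 over AtKAI2OE control (SE, adjusted p = 3.49e-06). PMEI12 had 24.3, 20.7 and 19.3 CPM in Ara-1 control seeds, a log2 fold change of 5.57 ± 0.60 (SE, adjusted p = 0.000141) that stood at 7.03 without AtKAI2OE control replicate 3 and at 4.94 without replicate 2. PMEI9 had 14.3, 15.3 and 15.8 CPM in Ara-1 control seeds, a log2 fold change of 3.14 ± 0.29 (SE, adjusted p = 6.75e-05). AT4G12390, the inhibitor listed as PME1, had 8.86, 8.23 and 9.39 CPM in Ara-1 control seeds, a log2 fold change of 2.21 ± 0.24 (SE, adjusted p = 0.000143). All 4 inhibitors were higher in every Ara-1 library than in any AtKAI2OE control library.

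The 5 members lower in Ara-1 control seeds were PME31, PME2, PMEI6, PME56 and PME16. PME31 had 20.7, 16.1 and 18.2 CPM in Ara-1 control seeds, against 76.7, 57.8 and 67.0 CPM in AtKAI2OE control seeds, a log2 fold change of -1.91 ± 0.18 (SE, adjusted p = 7.28e-05). PME2 had a log2 fold change of -3.54 (adjusted p = 0.00424) and PMEI6 of -3.15 ± 0.82 (adjusted p = 0.0107), and the PMEI6 call was lost without Ara-1 control replicate 3. PME56 and PME16 had no counts in Ara-1 control seeds and were at least 48.3-fold and 17.6-fold lower. Reads were mapped to Col-0 sequence, and how far Ara-1 differs from it in these genes was not tested. PME36 and PME53 were tested and not called (log2 fold changes 2.27 and 0.31, adjusted p = 0.0762 and 0.742).

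The third comparison set the wild-type accession against the KAR2-treated line. Of 26 members tested in Ara-1 control against AtKAI2OE +KAR2 seeds, 14 were higher, 4 lower and 8 not called, where 30.1% of all 17978 genes tested were higher and 32.2% were lower. The median log2 fold change of the members was 0.62, against -0.01 over all genes. The libraries did not overlap for 22 of the 26 members and for 69.7% of all genes tested. Here 2 of the 26 had no counts in a group, passed the filter only through the other and were bound to differ. Of 19 esterases tested, 9 were higher and 3 lower, with a median of 0.56, and of 7 inhibitors tested, 5 were higher and 1 lower, with a median of 2.31.

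PME3 was not called. With 567, 465 and 531 CPM in Ara-1 control seeds and 462, 468 and 453 CPM in AtKAI2OE +KAR2 seeds, its log2 fold change was 0.14 ± 0.09 (SE, adjusted p = 0.227), and the groups overlapped. PME12 (-0.15, adjusted p = 0.258) and PME13 (0.54, adjusted p = 0.0627) were not called either, nor was PME32. The inhibitors PMEI12 and PMEI9 had the largest fold changes of the members with over 10 CPM in Ara-1. PMEI12 had 24.3, 20.7 and 19.3 CPM in Ara-1 control seeds, against 2.19, 1.60 and 3.45 CPM in AtKAI2OE +KAR2 seeds, a log2 fold change of 3.10 ± 0.25 (SE, adjusted p = 3.2e-05). PMEI9 had 14.3, 15.3 and 15.8 CPM in Ara-1 control seeds, against 3.03, 2.82 and 3.04 CPM in AtKAI2OE +KAR2 seeds, a log2 fold change of 2.31 ± 0.11 (SE, adjusted p = 1.87e-06). PMEI7 ran the other way, with 75.5, 76.4 and 84.9 CPM in Ara-1 control seeds and 122, 107 and 114 CPM in AtKAI2OE +KAR2 seeds (log2 fold change -0.57 ± 0.08, adjusted p = 0.000547). The inhibitor sums of 127 CPM in each of these groups were thus made up of different shares of these members.

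Esterases that were higher in Ara-1 control than in AtKAI2OE +KAR2 seeds included PME7 (26.8, 24.2 and 23.1 CPM in Ara-1 control, against 7.16, 6.07 and 8.39 CPM in AtKAI2OE +KAR2), with a log2 fold change of 1.73 ± 0.13 (SE, adjusted p = 2.35e-05). PME44 (0.96 ± 0.09, adjusted p = 6.59e-05), PME1 AT1G53840 (0.94 ± 0.11, adjusted p = 0.000171), PME25 (0.68 ± 0.11, adjusted p = 0.0009) and PME64 (0.56 ± 0.13, adjusted p = 0.0078) were higher by smaller amounts on the log2 scale. PME33 was higher by 1.19 (adjusted p = 0.000546) and PME59 by 1.83 (adjusted p = 0.00165). AT4G12390 was called at 0.49 ± 0.14 (adjusted p = 0.0157), but not without AtKAI2OE +KAR2 replicate 1 or 3 (highest adjusted p = 0.0613). PMEI10 (159 counts over the Ara-1 control libraries, 5 over the AtKAI2OE +KAR2 libraries) and PMEI4 (55 counts and 1 count) were higher as well. PMEI4 is an inhibitor known from hypocotyl growth.

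Lower in Ara-1 control than in AtKAI2OE +KAR2 seeds were, beside PMEI7, PME31 (20.7, 16.1 and 18.2 CPM in Ara-1 control, against 33.8, 32.4 and 31.9 CPM in AtKAI2OE +KAR2, log2 fold change -0.88 ± 0.10, adjusted p = 0.000214), PME41 (-0.50 ± 0.13, adjusted p = 0.00934) and PME53 (-1.84 ± 0.26, adjusted p = 0.000532). The calls of PME41 and PME53 were lost when all 9 libraries entered a single fit. PME31 was thus lowest in Ara-1 control, intermediate in AtKAI2OE +KAR2 and highest in AtKAI2OE control seeds, with no overlap between any of the 3 groups. PME53 was highest in AtKAI2OE +KAR2 seeds at 1.47 to 1.97 CPM, against 0.481 to 0.543 CPM in Ara-1 control and 0 to 0.642 CPM in AtKAI2OE control seeds.

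**Figure D3:**
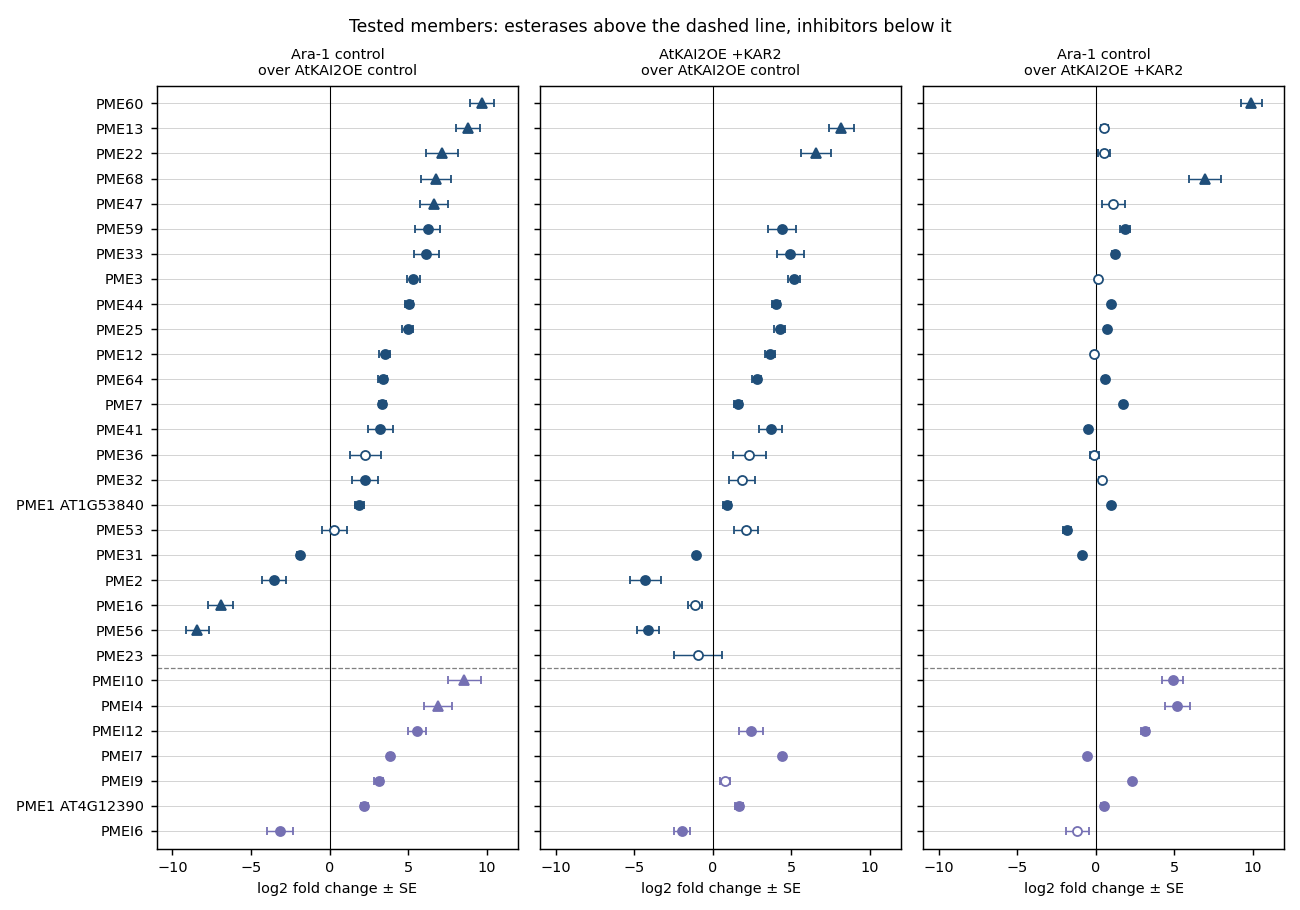
Log2 fold changes with their standard errors for all members tested in the 3 comparisons, esterases above the dashed line and inhibitors below it, filled where the adjusted p was under 0.05. Triangles mark members with no counts in a group, whose fitted values are neither a measured fold nor a bound. Most esterases lie to the right of 0 in both comparisons with AtKAI2OE control, and PME31 lies to the left in all 3.

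PME59 and PME60 lie side by side on the minus strand of chromosome 5, 1915 bases apart, and encode proteins of 536 and 540 residues. PME60 had 5.59, 3.61 and 3.25 CPM in Ara-1 control seeds and no counts in the 6 AtKAI2OE libraries, at least 108-fold higher in Ara-1 control than in AtKAI2OE +KAR2 seeds (adjusted p = 7.7e-05). PME59 had 7.39, 4.02 and 4.56 CPM in Ara-1 control seeds, against 1.58, 0.927 and 1.79 CPM in AtKAI2OE +KAR2 seeds and 0, 0.161 and 0 CPM in AtKAI2OE control seeds. PME60 was therefore the member of the pair with reads in 1 group alone. All reads were mapped to TAIR10, which is Col-0 sequence, and how far Ara-1 differs from it in either gene or any other member was not tested. So that the neighbours can be compared, the 250 bases before each start in TAIR10.1 are given from chr5:20915880-20916129 (PME59) and chr5:20919965-20920214 (PME60), both on the minus strand, with matches to TAACAAA or its reverse complement in capitals.
PME59: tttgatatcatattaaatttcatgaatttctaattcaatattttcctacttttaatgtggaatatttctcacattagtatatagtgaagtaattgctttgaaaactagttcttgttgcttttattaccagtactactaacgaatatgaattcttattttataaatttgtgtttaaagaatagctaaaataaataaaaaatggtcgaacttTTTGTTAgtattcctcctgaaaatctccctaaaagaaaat
PME60: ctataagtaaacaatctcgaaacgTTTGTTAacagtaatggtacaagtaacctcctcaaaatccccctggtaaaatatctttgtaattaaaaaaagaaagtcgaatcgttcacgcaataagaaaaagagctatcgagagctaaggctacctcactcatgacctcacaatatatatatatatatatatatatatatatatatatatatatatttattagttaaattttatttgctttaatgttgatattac
The match began 40 bases before the start of PME59 and 226 bases before that of PME60, and neither window held CACGTG or CACATG.

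With PME59 and PME60, the family held 16 pairs of members with at most 2 genes between them. In 7 pairs both genes had counts, in 5 only 1 gene did and in 4 neither did. PME2 and PME1 AT1G53840 lie 320 bases apart, and PME2 was lower and PME1 AT1G53840 higher in both comparisons with AtKAI2OE control. PMEI4 and PMEI7 lie 239 bases apart, and PMEI4 stayed under 1 CPM in every library, whereas PMEI7 was the most abundant inhibitor. PME24 ends 30 bases from PME25 and had no counts, and PME26, 1896 bases from PME3, had none either. PME12 and PME13, 1419 bases apart, were both higher in each comparison with AtKAI2OE control.

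The esterases fall into a long and a short form, and the cut of 450 residues between them was set after the data were seen. The 38 long esterases of 474 to 968 residues leave room for an inhibitor-like domain ahead of the catalytic domain, and 22 of them held a basic motif of the kind at which subtilases cut such proteins. The 15 short esterases of 288 to 407 residues held none of these motifs. Of the long form 25 had counts, against 4 of the short form. In AtKAI2OE +KAR2 against AtKAI2OE control seeds, 12 of 17 long esterases tested were higher and 1 lower (all genes: 29.8% and 24.0%). Of 3 short esterases tested, PME31 and PME56 were lower and PME53 was not called. PME53 was near the threshold, with a log2 fold change of 2.12 (adjusted p = 0.0514) and groups that did not overlap, and it was called higher with RLE or library-size scaling, with DESeq2, with all 9 libraries in a single fit and without AtKAI2OE control replicate 1 or 2. In Ara-1 control against AtKAI2OE control seeds, 15 of 18 long esterases were higher and 2 lower (all genes: 37.9% and 31.8%). Of 4 short esterases, PME68 was higher, PME31 and PME56 lower and PME53 not called. In Ara-1 control against AtKAI2OE +KAR2 seeds, 8 of 16 long esterases were higher and 1 lower (all genes: 30.1% and 32.2%). Of 3 short esterases, PME68 was higher and PME31 and PME53 lower. The numbers of short esterases are too small to set the forms against each other.

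The members that could not be tested were low or silent. With counts but below the filter were 10 members in AtKAI2OE +KAR2 against AtKAI2OE control, 9 in Ara-1 control against AtKAI2OE control and 12 in Ara-1 control against AtKAI2OE +KAR2. PME30 had 44 counts, all in AtKAI2OE control replicate 2. PME17, an esterase induced by pathogens in leaves, had 2 counts in all. PMEI1 and PMEI2, inhibitors known from pollen, had at most 6 counts in a library. Among the 26 members with no counts were PME4, PME5 and PME48, esterases of pollen and pollen tubes, and PME58, an esterase of seed coat mucilage.

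Further loci annotated as pectinesterases or their inhibitors, but with other symbols, were looked at beside the members. Of 6 such esterase loci, 2 were tested. AT3G49220 had 4.52, 4.47 and 4.23 CPM in AtKAI2OE +KAR2 seeds, against 0, 0 and 0.187 CPM in AtKAI2OE control seeds (log2 fold change 5.96 ± 0.76, adjusted p = 0.000654). AT5G09760 was higher by 1.45 on the log2 scale in the same comparison (adjusted p = 0.000125), and both were higher in Ara-1 control than in AtKAI2OE control seeds, by 6.22 and 1.44. The other 68 loci held fewer than 2 of the esterase signatures and were set with the inhibitors. Nearly all are annotated to the inhibitor superfamily, which also holds invertase inhibitors. AT3G28922 among them is annotated as a pectinesterase and had no counts. Of the 68 loci, 6 were tested with KAR2, and 3 were higher and none lower (all genes: 29.8% and 24.0%). In Ara-1 control against AtKAI2OE control 8 were tested, of which 5 were higher and 2 lower (all genes: 37.9% and 31.8%). The most abundant of them by CPM, AT5G62350, had 162 ± 19.7 CPM in Ara-1 control seeds, 127 ± 9.13 CPM in AtKAI2OE +KAR2 seeds and 21.7 ± 7.18 CPM in AtKAI2OE control seeds (SD, n = 3 each). It was higher by 2.53 with KAR2 (adjusted p = 0.000141) and by 2.88 in Ara-1 control (adjusted p = 5.09e-05) on the log2 scale. AT5G62340 was higher by 3.79 with KAR2 (adjusted p = 0.0054) and by 5.65 in Ara-1 control (adjusted p = 0.000378). AT5G20740 was higher by 2.75 with KAR2 (adjusted p = 0.000999) and by 5.47 in Ara-1 control (adjusted p = 7.43e-06). AT5G46940 and AT5G46950, close to PMEI12 (AT5G46960) by their identifiers, had no counts in AtKAI2OE control seeds and were at least 28.7-fold and 65.1-fold higher in Ara-1 control seeds. They passed the filter there only through Ara-1 control and were bound to differ. In Ara-1 control against AtKAI2OE +KAR2 seeds they were higher by 2.10 and 4.09 on the log2 scale, where PMEI12 was higher by 3.10.

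Genes that make the substrate of the esterases were looked at next. The counts of these lists stand against 29.8% of all genes higher and 24.0% lower with KAR2, 37.9% and 31.8% in Ara-1 control against AtKAI2OE control, and 30.1% and 32.2% in Ara-1 control against AtKAI2OE +KAR2 seeds. Of 18 genes of homogalacturonan synthesis, all tested, 10 were higher and 8 were not called in AtKAI2OE +KAR2 against AtKAI2OE control seeds (median log2 fold change 1.12). In Ara-1 control against AtKAI2OE control seeds 15 were higher and 1 lower (median 1.74), and in Ara-1 control against AtKAI2OE +KAR2 seeds 14 were higher and 1 lower (median 0.59). UGD2, a UDP-glucose dehydrogenase, had 282 ± 7.37 CPM in Ara-1 control seeds, 98.6 ± 8.25 CPM in AtKAI2OE +KAR2 seeds and 10.9 ± 3.15 CPM in AtKAI2OE control seeds (SD, n = 3 each). GAE6, an epimerase that makes UDP-galacturonic acid, had 151 ± 24.2 CPM, 65.1 ± 5.66 CPM and 3.83 ± 2.78 CPM in the same order. With KAR2 these 2 genes were higher by 3.16 (adjusted p = 5.94e-05) and 4.08 (adjusted p = 0.000325) on the log2 scale, and GAE1, a second epimerase, by 2.91 (adjusted p = 7.99e-05). GAUT3, of the galacturonosyltransferase family, was the gene that was lower, by a log2 fold change of -1.13 (adjusted p = 0.00114) in Ara-1 control against AtKAI2OE control seeds and -0.83 (adjusted p = 4.37e-05) against AtKAI2OE +KAR2 seeds.

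The next list held genes for enzymes that cut demethylesterified pectin. Of 15 polygalacturonase and pectate lyase genes, 8 were tested with KAR2 and 6 were higher (median 3.26). In Ara-1 control seeds 9 were tested, of which 7 were higher than in AtKAI2OE control seeds (median 3.72, or 3.54 with bounds), and 6 were higher and 1 lower than in AtKAI2OE +KAR2 seeds (median 1.78). The pectate lyase-like gene PLL16 had 61.4 ± 5.14 CPM in Ara-1 control seeds, 10.4 ± 1.90 CPM in AtKAI2OE +KAR2 seeds and 0.522 ± 0.456 CPM in AtKAI2OE control seeds (SD, n = 3 each). PLL21 had no counts in AtKAI2OE control seeds and was at least 29.6-fold higher with KAR2 and at least 261-fold higher in Ara-1 control seeds. ADPG2, a polygalacturonase of cell separation, was highest with KAR2. It had 0.694 ± 0.252 CPM in Ara-1 control, 2.22 ± 0.246 CPM in AtKAI2OE +KAR2 and 0.172 ± 0.298 CPM in AtKAI2OE control seeds (SD, n = 3 each), a log2 fold change of 3.61 ± 1.03 with KAR2 (SE, adjusted p = 0.0218, with all 11 control counts in replicate 3) and of -1.72 ± 0.32 in Ara-1 control against AtKAI2OE +KAR2 (SE, adjusted p = 0.00207).

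Of 9 pectin acetylesterase genes, which remove acetyl groups from the same polymer, 5 were tested with KAR2 and 4 were higher, and 5 of 5 were higher in Ara-1 control than in AtKAI2OE control seeds. PAE12 had 94.7 ± 14.5 CPM in Ara-1 control seeds, 87.9 ± 2.17 CPM in AtKAI2OE +KAR2 seeds and 5.19 ± 2.35 CPM in AtKAI2OE control seeds (SD, n = 3 each). Its log2 fold changes over AtKAI2OE control were 4.06 with KAR2 (adjusted p = 6.99e-05) and 4.16 in Ara-1 control (adjusted p = 3.06e-05). The polygalacturonase inhibitor PGIP2 was higher by 4.34 on the log2 scale in Ara-1 control than in AtKAI2OE control seeds (adjusted p = 0.00509), a fold that rests on 7 control counts, all in replicate 3, whereas PGIP1 was lower, with a log2 fold change of -1.01 (adjusted p = 0.015).

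Genes known to process or regulate pectin methylesterases formed the last list. Of 11, 9 were tested, and 2 were higher and 1 lower with KAR2 (median 0.31), and 2 were higher and 2 lower in Ara-1 control against AtKAI2OE control seeds (median -0.13). Over all genes 29.8% and 37.9% were higher and 24.0% and 31.8% lower in these comparisons, and 9 genes are too few to set against such shares. ERF4, a transcription factor that regulates mucilage demethylesterification, had 30.1 ± 1.83 CPM in AtKAI2OE +KAR2 seeds and 9.73 ± 2.59 CPM in AtKAI2OE control seeds, a log2 fold change of 1.61 ± 0.21 (SE, adjusted p = 0.000716). SBT6.1, a Golgi subtilase that cleaves esterase precursors, was lower with KAR2 by a log2 fold change of -0.73 (adjusted p = 0.0105) and in Ara-1 control by -1.72 (adjusted p = 0.000146). SBT1.7, a subtilase of seed coat mucilage, was higher with KAR2 by 0.85 (adjusted p = 0.0219) and was lower in Ara-1 control than in AtKAI2OE +KAR2 seeds by -1.23 (adjusted p = 3.12e-05).

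**Figure D4:**
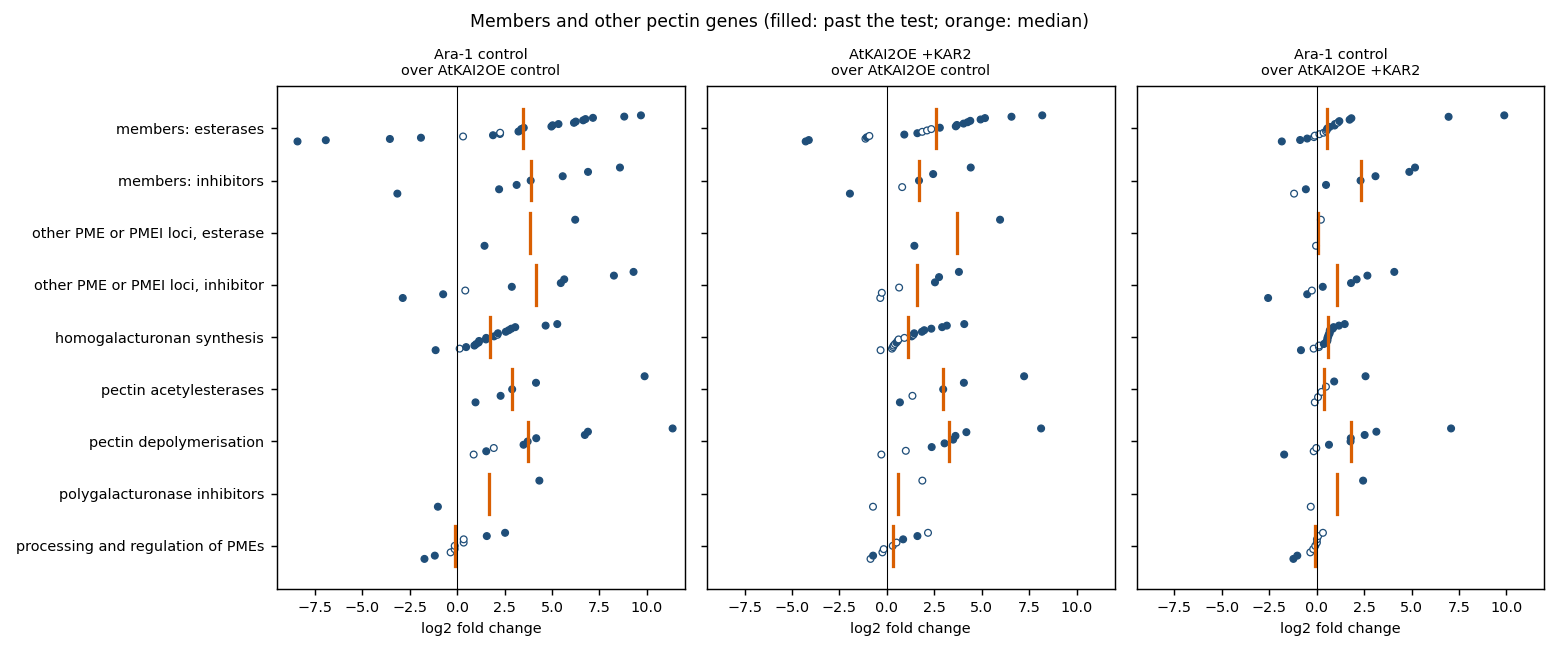
Log2 fold changes of the tested genes of each pectin list in the 3 comparisons, a point per gene, filled where the adjusted p was under 0.05, with the median of each list as an orange bar and fitted values for genes with no counts in a group. The medians of homogalacturonan synthesis and depolymerisation genes lie above 0 in all 3 comparisons, and those of processing and regulation genes lie near 0.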

How the data were processed

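Directional RNA libraries from whole seeds were sequenced with 3 replicates in each of 3 groups. The authors deposited whole-number counts per gene. Their processing notes and methods name htStream, HISAT2 2.1.0, SAMtools 1.10 and StringTie 2.1.3, with TAIR10 and Araport11. For the strand setting of the counting step, the sources used here name none. Reads of overlapping genes cannot be told apart. The authors' normalized values (DESeq2 1.18.1) were not used.

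Entries with the same gene identifier were summed. Entries with no gene name, 13.4 to 35.1% of counts per library, were left out of library sizes and tests. Each pair of groups was fitted over all genes in R 4.3.3 with edgeR 4.0.16 (TMM scaling, filterByExpr with a minimum count of 10 and a minimum total of 15, quasi-likelihood test, Benjamini-Hochberg threshold 0.05). The procedure was also run on simulated data in which a small part of the genes was changed, equally in both directions. Such data cannot show how the scaling behaves where as many genes differ as here. Gene totals were 17479888 to 33306518 per library. Limits set by 3 counts cover counting error only, whereas SD and SE hold the spread between replicates as well. Between replicates, counts varied beyond sampling noise in every group. CPM were scaled by TMM over the 9 libraries.

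Values per library are given for members with a mean of at least 10 CPM in a group, or past the test with a log2 fold change of at least 1 in size and a mean of at least 2 CPM. From each pathway list, up to 3 genes in each direction with the largest called changes and 2 CPM or more could be named, and loci below that were chosen after their values were seen. Members and lists were chosen with earlier results of these data known. Esterases were classed by 2 or more of 5 pectinesterase signatures in the protein translated from RefSeq gene models, a rule set after the data were seen in place of a single signature. Inhibitors among the members were classed by symbol or annotated product. In the acetylesterase list, 2 genes with PAE symbols that encode proteasome subunits were left out after their values were seen. Alternatives were RLE or library-size scaling, DESeq2 1.42.0, other filters, all 9 libraries in a single fit, the replicate number as a block, unsummed entries and each library left out.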

Additional observations from a re-analysis of the deposited data

How the results depend on the processing

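Fold changes of the members given per library were recomputed under each alternative that could fit them, and none that was called changed sign. No value could be had where a filter removed a member, as that of 10 counts in every library did for PME13, PME32, PME33, PME41, PME59, PME64 and PMEI12 with KAR2. Leaving out each library in turn gave 13 to 17 members higher and 3 to 4 lower in AtKAI2OE +KAR2 against AtKAI2OE control. It gave 21 to 23 higher and 4 to 6 lower in Ara-1 control against AtKAI2OE control. In Ara-1 control against AtKAI2OE +KAR2 it gave 13 to 15 higher and 4 to 5 lower. Over all genes the same fits gave 4104 to 5504 higher and 2981 to 4743 lower of 17458 to 17655 tested with KAR2. For Ara-1 control they gave 6052 to 6963 higher and 5079 to 6053 lower of 18187 to 18458 against AtKAI2OE control. Against AtKAI2OE +KAR2 they gave 4743 to 5709 higher and 5076 to 5806 lower of 18216 to 18458. Requiring at least 10 counts in every library left fewer members to test, since those below it in any library dropped out. Of 11 members tested 9 were higher and 2 lower with KAR2, where 4227 of all 14391 genes were higher and 3719 lower. In Ara-1 control against AtKAI2OE control 9 of 10 members were higher and 1 lower. There 4827 of all 13766 genes were higher and 4810 lower. Scaling by library size alone raised the median log2 fold change of all genes by 0.40 with KAR2 and by 0.36 in Ara-1 control against AtKAI2OE control, where 44.1% of all genes were then higher and 24.7% lower. Under it the esterases summed to 705 CPM in AtKAI2OE +KAR2 and 91.0 CPM in AtKAI2OE control seeds, and the inhibitors to 136 CPM in Ara-1 control, 139.8 CPM in AtKAI2OE +KAR2 and 9.57 CPM in AtKAI2OE control seeds. Without summing of entries the esterases stood at 651 CPM in AtKAI2OE +KAR2 and the inhibitors at 12.3 CPM in AtKAI2OE control seeds. No member had a second entry, so member counts were the same and only the library sizes changed.

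Neither the labels nor the methods say what a replicate number stands for, and deviations of libraries with the same number correlated at -0.134 to 0.369, so the numbers were not taken to pair samples. With the replicate number as a block, 14 members were higher and 3 lower with KAR2, 20 higher and 5 lower in Ara-1 control against AtKAI2OE control, and 14 higher and 4 lower in Ara-1 control against AtKAI2OE +KAR2. The calls lost were those of PMEI6 and PME22 with KAR2 and of PME32 and PME47 in Ara-1 control against AtKAI2OE control. Over all genes the block gave 4488 higher and 3379 lower of 17226 tested with KAR2. For Ara-1 control it gave 6547 higher and 5489 lower of 17905 against AtKAI2OE control. Against AtKAI2OE +KAR2 it gave 4699 higher and 5267 lower of 17978. Depth limits the members under about 1 CPM, for which a few counts in a single library decided a value.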
